A study of Mus musculus with 12 samples.

Results

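Kit, the gene of the receptor tyrosine kinase for stem cell factor, was followed across mouse melanoma tumours that differ in galectin-3 of the tumour cells and of the host. It was found by matching the RefSeq accession in each probe-set name to a mouse symbol: 1 probe set carried Kit, among 909 genes named by 963 of the 1246 probe sets of a focused Affymetrix array of glycan, lectin, cytokine and growth factor genes. Kit was singled out with its values in these groups already known, so its levels and differences are given as a description with standard errors and without p-values.

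The 4 groups of 3 arrays combine a tumour line with a host. Galectin-3 knockout mice (Gal3 -/-) carried Tm1N3 tumours in 1 group and Tm1G3 tumours in another, and wild-type (WT) mice carried Tm1N3 and Tm1G3 tumours in the remaining groups. By its labels Tm1N3 expresses galectin-3 while the gene is silenced in Tm1G3, and the design text describes a silenced melanoma line, a galectin-3 plasmid put into it, and syngeneic hosts. Each galectin-3 state is thus represented by 1 cell line, and every sample is bulk tumour, with RNA of tumour cells and of host cells together. By the labels, the host genotype bears on the host cells of a tumour and not on the injected melanoma cells.

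The Kit protein spans the cell membrane, pairs up when stem cell factor binds, and passes the signal on through phosphatidylinositol 3-kinase, Src family kinases and the MAP kinase pathway. It is needed by melanocytes and their precursors, mast cells, blood progenitors and germ cells, and coat spotting in mice is the classical sign of its loss. In human melanoma the receptor is often lost as tumours become invasive, while a subset from acral and mucosal sites carries activating changes in it. Kit belongs to the class III receptor tyrosine kinases with the CSF-1 receptor, Flt3 and both PDGF receptors.

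Kit was lower in Tm1N3 than in Tm1G3 tumours on every array and in both hosts. Values are log2 RMA levels, so a step of 1 is a doubling. In knockout hosts the probe set read 4.91, 5.76 and 5.41 on the Tm1N3 arrays, against 7.22, 6.91 and 6.62 on the Tm1G3 arrays. In WT hosts it read 5.91, 6.07 and 5.62 on the Tm1N3 arrays, against 6.20, 6.36 and 6.35 on the Tm1G3 arrays. The 6 Tm1N3 arrays, from 4.91 to 6.07, did not overlap with the 6 Tm1G3 arrays, from 6.20 to 7.22, and a gap of 0.13 separated the lines at the nearest point. From the lowest array, a Tm1N3 tumour of a knockout host, to the highest, a Tm1G3 tumour of a knockout host, the range was 2.31, or 4.96-fold. Because the tissue is bulk tumour, fewer Kit-bearing cells and less Kit RNA per cell cannot be told apart here.

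**Figure D1:**
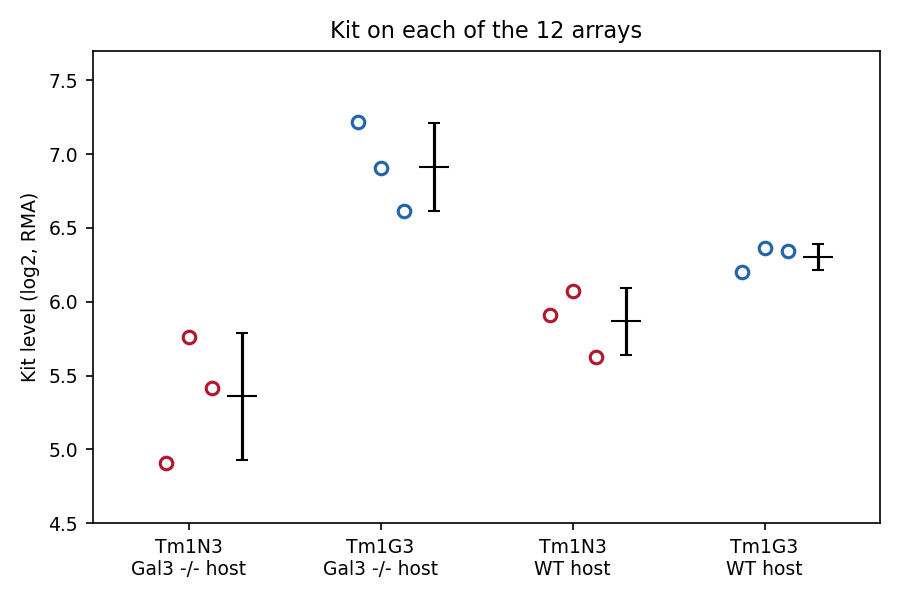
Kit level (log2, RMA) on each of the 12 arrays by tumour line and host; circles are arrays and the bar beside them is the group mean with its SD (n = 3 each). The Tm1N3 arrays lie between 4.91 and 6.07, all under the Tm1G3 arrays between 6.20 and 7.22, and both the lowest and the highest arrays come from knockout hosts.

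The group means fell in the order Tm1G3 in knockout hosts (6.91 ± 0.30), Tm1G3 in WT hosts (6.30 ± 0.09), Tm1N3 in WT hosts (5.87 ± 0.23) and Tm1N3 in knockout hosts (5.36 ± 0.43; all SD, n = 3). The Tm1G3 groups were 0.61 apart and their arrays did not overlap. Tm1G3 in WT hosts stood 0.44 above Tm1N3 in WT hosts, again without overlap. For 3 arrays against 3, such a split in either direction has a probability of 0.1 without any difference. The share of all probe sets that split so was not counted, so the lack of overlap alone says little. The same holds below where all 9 pairings ran the same way. The last neighbours, Tm1N3 in WT and in knockout hosts, were 0.51 apart but overlapped, since replicate 2 of the knockout hosts (5.76) lay above replicate 3 of the WT hosts (5.62). Both groups from knockout hosts were more spread out than both from WT hosts. The pooled within-group SD of Kit was 0.289, against a median of 0.121 over all probe sets, which put Kit at percentile 88.4 for spread between replicates.

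The line comparison asks what accompanies galectin-3 in the tumour cells. In knockout hosts Kit was 2.93-fold lower in Tm1N3 than in Tm1G3 tumours, a log2 difference of -1.55 ± 0.21 (SE), the third largest in size of 1246 probe sets. All 9 pairings of a Tm1N3 with a Tm1G3 array ran in that direction. In WT hosts the difference was -0.44 ± 0.21 (SE), or 1.35-fold lower in Tm1N3, rank 88 in size, and again all 9 pairings ran the same way. Averaged over hosts it was -0.99 ± 0.15 (SE), 1.99-fold lower in Tm1N3 and rank 5 in size. The median difference over all probe sets was 0.00 in each of these comparisons.

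With limma and a Benjamini-Hochberg adjusted p under 0.05 over all 1246 probe sets, 9 passed in the knockout hosts (0.722%), 2 of them higher (0.161%) and 7 lower (0.562%) in Tm1N3. In WT hosts 11 passed (0.883%), 5 higher (0.401%) and 6 lower (0.482%). Averaged over hosts 53 passed (4.25%), 16 higher (1.28%) and 37 lower (2.97%). Kit is among the 1246 probe sets tested, but its own call is not given, because the gene was chosen on these contrasts.

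The host comparison asks what accompanies galectin-3 in host cells. Its Kit difference had opposite signs in the tumour lines. In Tm1N3 tumours Kit averaged 5.36 ± 0.43 in knockout hosts and 5.87 ± 0.23 in WT hosts (SD, n = 3 each), a difference of -0.51 ± 0.21 (SE), or 1.42-fold lower in knockout hosts. Of 9 pairings, 8 were lower in the knockout host and 1 was higher. Between arrays of the same replicate number, which were taken to pair the hosts within a line, the difference was -1.01, -0.31 and -0.21, lower in the knockout host in all 3. Without replicate 1 of Tm1N3 in knockout hosts, the array with the lowest Kit value, the difference was -0.28. In Tm1G3 tumours Kit averaged 6.91 ± 0.30 in knockout hosts and 6.30 ± 0.09 in WT hosts, a difference of 0.61 ± 0.21 (SE), or 1.53-fold higher in knockout hosts, and all 9 pairings were higher. Between arrays of the same number it was 1.01, 0.54 and 0.27.

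Averaged over the lines these differences nearly cancelled, at 0.05 ± 0.15 (SE). The line difference in knockout hosts minus that in WT hosts was -1.12 ± 0.30 (SE), second in size among 1246 probe sets after Il1b at 1.20, the gene of interleukin-1 beta, and before Fgf21, which encodes a metabolic hormone, at -1.11. Of the sum of squares of Kit over the 12 arrays, 64.8% lay between the lines, 0.169% between the hosts, 20.4% in the line by host term and 14.6% within groups.

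No probe set passed in limma for either host comparison, for their average or for the line by host term (0 of 1246 and 0.0% in each). At an unadjusted p under 0.05 there were 54 probe sets for the hosts in Tm1N3 tumours and 77 for the hosts in Tm1G3 tumours. There were 78 for the average and 35 for the line by host term. A fraction of 0.05 of the 1246 probe sets is expected under that limit without any difference, so these counts say little about the hosts. The line and host comparisons share groups, so the same 12 values enter all of them.

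**Figure D2:**
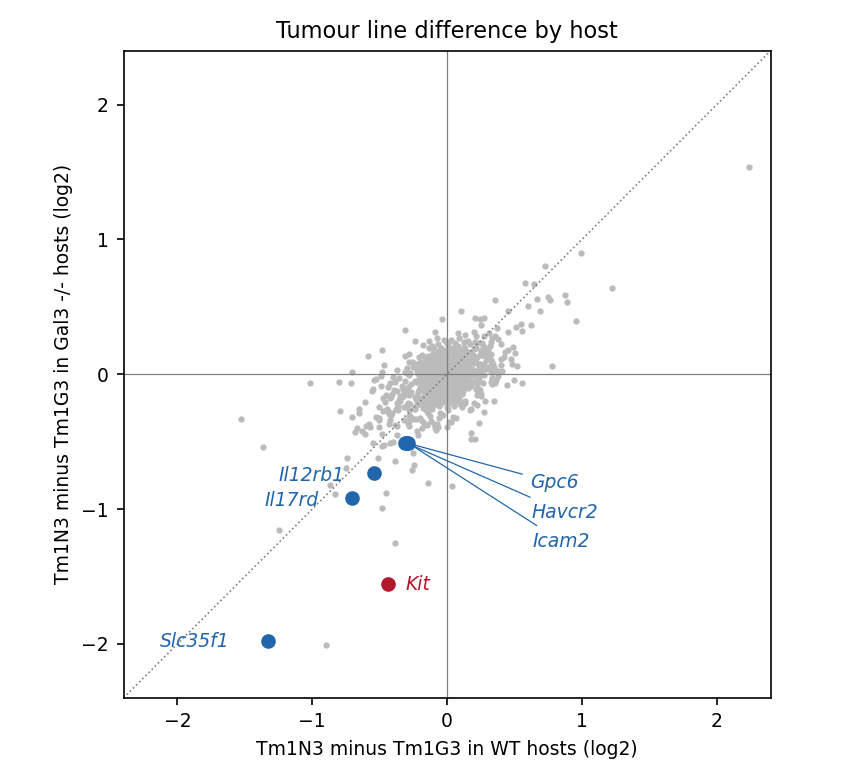
Log2 difference, Tm1N3 minus Tm1G3, in knockout hosts (vertical axis) and in WT hosts (horizontal axis) for each probe set; Kit is red, the 6 genes most like Kit over the arrays are blue, all others grey, and the dotted line marks equal differences. Kit lies at -1.55 in knockout and -0.44 in WT hosts, below the line, while Slc35f1 lies at -1.98 and -1.33.

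The ligand and the inner pathway of Kit could not be followed. Of 38 listed genes of stem cell factor and Kit signalling, among them Kitl, which encodes stem cell factor, Grb2 and Ptpn11, which encode adaptor and phosphatase proteins of the receptor, and Mitf, the melanocyte transcription factor, 0 were named on the array. The family around Kit was better covered, with 10 of 12 listed class III receptors and ligands measured.

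None of those 10 genes passed in any comparison. Of all probe sets, 0.722% passed between the lines in knockout hosts, 0.883% in WT hosts and 4.25% averaged, and none between hosts. At such shares, no call in a list of this size says little about its genes, and the same holds for the other short lists below. The median averaged line difference over the 10 genes was -0.07, with 3 positive and 7 negative. Over all probe sets it was 0.00, with 636 positive and 610 negative. Csf1r, the receptor through which macrophages survive, varied widely between arrays. It read 6.55, 7.03 and 8.55 in Tm1N3 against 7.92, 7.44 and 7.49 in Tm1G3 tumours of knockout hosts. In WT hosts it read 7.01, 6.93 and 8.30 in Tm1N3 against 8.50, 7.16 and 8.10 in Tm1G3 tumours. The lines overlapped in both hosts, and replicate 3 of Tm1N3 was high in each, unlike for Kit. The averaged line difference of Csf1r was -0.37 ± 0.38 (SE; limma, adjusted p = 0.751).

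Pdgfra, the PDGF receptor typical of fibroblasts, was likewise highest in replicate 3 of Tm1N3, at 7.96 in knockout and 7.43 in WT hosts, and its averaged line difference was 0.06 ± 0.37 (SE). Pdgfrb, the receptor of pericytes, differed by 0.00 ± 0.14 (SE). Flt3, the receptor of blood and dendritic cell progenitors, was nearly flat, between 5.75 and 5.94 over all 12 arrays, with a difference of 0.00 ± 0.05 (SE).

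Among the ligands, Pdgfa, a growth factor for Pdgfra-bearing cells, read 7.82, 8.19 and 8.13 in Tm1N3 against 8.72, 8.36 and 8.23 in Tm1G3 tumours of knockout hosts, which did not overlap. In WT hosts it read 8.28, 8.17 and 8.13 in Tm1N3 against 8.39, 8.23 and 7.96 in Tm1G3 tumours, which did. Its line difference was -0.39 ± 0.15 (SE) in knockout hosts (limma, adjusted p = 0.371) and 0.00 ± 0.15 in WT hosts. Its host difference was -0.15 in Tm1N3 and 0.25 in Tm1G3 tumours.

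Of the other ligands, Csf1, which drives macrophage growth, had an averaged line difference of -0.29 ± 0.15 (SE) on its brighter probe set and -0.19 ± 0.12 on the other. On the brighter one its host difference was -0.04 in Tm1N3 and 0.18 in Tm1G3 tumours. Pdgfb, a growth factor for pericytes, had an averaged line difference of -0.27 ± 0.17 and host differences of -0.02 in Tm1N3 and 0.21 in Tm1G3 tumours. Flt3l, the Flt3 ligand gene, stood at -0.13 ± 0.06. Pdgfc and Pdgfd, whose products need cleavage to act, stood at 0.16 ± 0.33 and 0.14 ± 0.07, Pdgfd on a probe set among the dimmest 25%. A further list of 44 other receptor tyrosine kinases had 9 measured genes and no call. Erbb3, a neuregulin receptor of the melanocyte lineage, and Egfr, the EGF receptor, had averaged line differences of 0.26 ± 0.10 and 0.20 ± 0.18 (SE), opposite in sign to Kit.

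**Figure D3:**
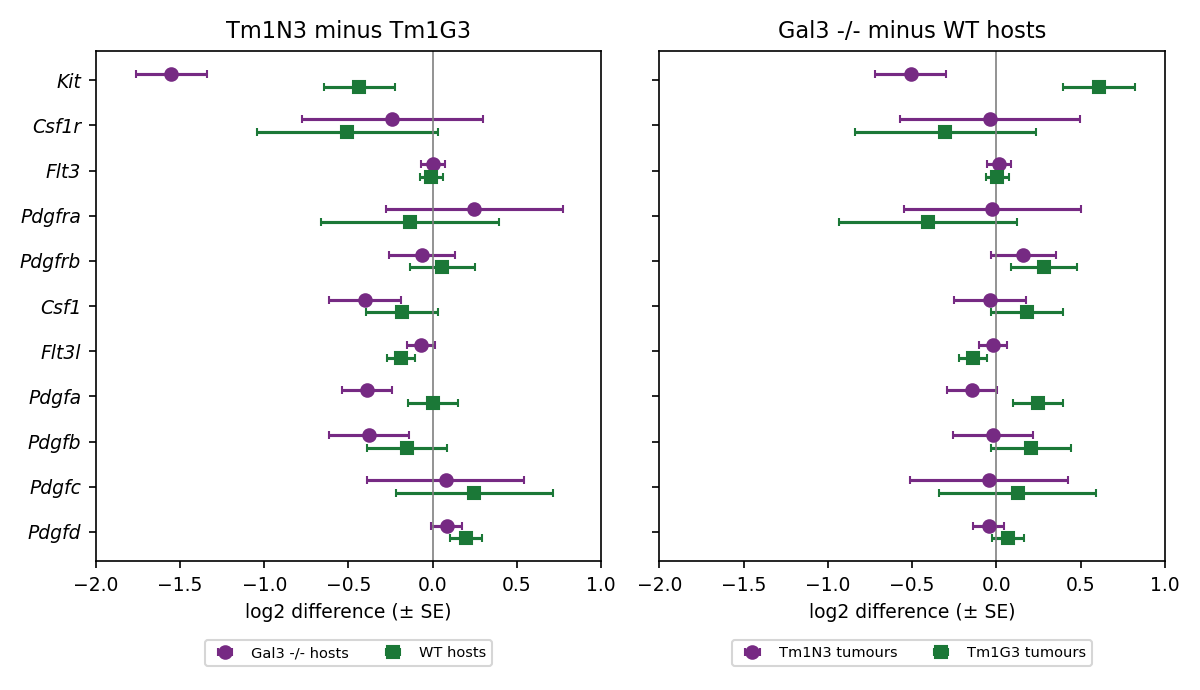
Log2 differences with their SE for Kit and the 10 measured class III receptors and ligands: Tm1N3 minus Tm1G3 in knockout (circles) and WT hosts (squares) at left, knockout minus WT hosts in Tm1N3 (circles) and Tm1G3 tumours (squares) at right. Kit stands at -1.55 and -0.44 at left and at -0.51 and 0.61 at right, while Csf1r and Pdgfra have the widest bars.

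Kit marks several cell types that a melanoma can hold, so their other markers were set beside it. The array names 88 of the 263 genes in the 14 lists used here, and in the averaged line comparison 6 of the 88 passed, 4 higher and 2 lower in Tm1N3, beside 4.25% of all probe sets. Of 26 melanocyte and melanoma genes 8 were measured, without Tyr, Pmel, Sox10 or Mlana, so the melanocyte identity of the tumours could not be checked by its defining genes. Mcoln3, a calcium channel of endosomes and lysosomes known from the varitint-waddler pigment mutant, was higher in Tm1N3 tumours, opposite to Kit. It read 8.74, 8.54 and 8.26 in Tm1N3 against 8.07, 7.83 and 7.72 in Tm1G3 tumours of knockout hosts, and 8.38, 8.77 and 8.34 against 7.20, 7.60 and 7.03 in WT hosts. The lines did not overlap in either host, and the averaged difference was 0.93 ± 0.13 (SE; limma, adjusted p = 0.00301).

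Mcam, the melanoma cell adhesion molecule, was also higher in Tm1N3 tumours, by 0.66 ± 0.15 (SE; limma, adjusted p = 0.0336). That call held in only 3 of 12 fits with 1 array left out, and it was lost with the replicate number as a fixed block (limma, adjusted p = 0.0572) and as a random block (adjusted p = 0.0674). The mean log2 level over the 8 melanocyte genes overlapped between the lines in knockout hosts, at 7.41 to 7.64 in Tm1N3 and 7.40 to 7.71 in Tm1G3. In WT hosts it did not, at 7.45 to 7.63 in Tm1N3 and 7.07 to 7.36 in Tm1G3, the opposite direction to Kit. In Tm1G3 tumours this mean was higher in knockout hosts (7.40 to 7.71) than in WT hosts (7.07 to 7.36), the same direction as Kit, and its part in the Kit difference was not tested.

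Mast cells are the host cells best known for Kit. The list of 23 mast cell genes had 4 measured members, Srgn, Il1rl1, Ndst2 and Siglecf, and 0 passed in any comparison. The proteases Cpa3 and Cma1 and the IgE receptor gene Fcer1a were not named on the array, so mast cells could not be followed by their defining genes. Il1rl1, the interleukin-33 receptor, read 5.11, 5.08 and 6.53 in Tm1N3 against 4.98, 5.16 and 5.35 in Tm1G3 tumours of knockout hosts, and 4.73, 5.07 and 6.66 against 4.98, 5.02 and 6.56 in WT hosts. Srgn, the granule proteoglycan serglycin, which other leukocytes and endothelium also make, differed by -0.51 ± 0.50 (SE) on average. The mean over the 4 genes ran from 5.66 to 6.63 in Tm1N3 and 5.95 to 6.12 in Tm1G3 tumours of knockout hosts, and from 5.77 to 6.52 and 5.86 to 6.53 in WT hosts. Its Pearson correlation with Kit over the 12 arrays was 0.01, given without a p because the arrays share groups.

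Cytokines and receptors that act on mast cells were well covered, with 23 of 27 genes measured, and 1 was higher and 1 lower in each line comparison, beside 0.722% of all probe sets called in knockout hosts, 0.883% in WT hosts and 4.25% averaged. Il3ra, the interleukin-3 receptor alpha chain, read 7.06, 7.54 and 7.07 in Tm1N3 against 6.42, 6.36 and 6.20 in Tm1G3 tumours of knockout hosts. In WT hosts Il3ra read 7.72, 7.32 and 7.40 in Tm1N3 against 6.71, 6.29 and 6.46 in Tm1G3 tumours. It rose by 0.95 ± 0.11 (SE; limma, adjusted p = 0.00134) on average, opposite in sign to Kit. Its call in knockout hosts alone (limma, adjusted p = 0.0310) held in 5 of 12 fits with 1 array left out and was lost with the random block (adjusted p = 0.0539).

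Il18, an interferon-gamma inducing cytokine, fell by 1.20 ± 0.08 (SE; limma, adjusted p = 2.2e-05) in Tm1N3 tumours. It lay between 6.20 and 6.43 on the Tm1N3 arrays and between 7.29 and 7.71 on the Tm1G3 arrays. Unlike Kit, Il18 had nearly the same line difference in knockout hosts (-1.15) and in WT hosts (-1.25), and host differences of 0.03 in Tm1N3 and -0.06 in Tm1G3 tumours.

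Blood progenitor genes gave 3 measured of 15 and no call, with averaged line differences of 0.17 ± 0.21 for Cd34 and 0.03 ± 0.07 for Cd44 (SE). Of 15 endothelial genes 6 were measured, and Icam2, an adhesion molecule of endothelium, fell in Tm1N3 tumours by 0.40 ± 0.08 (SE; limma, adjusted p = 0.0215). That call was lost with replicate numbers within a line as a random block (limma, adjusted p = 0.0545). Emcn, an endothelial sialomucin, differed by 0.23 ± 0.20 in the other direction. The 7 measured macrophage genes of 15 gave no call. On average 6 of the 7 were lower in Tm1N3, with a median of -0.33, beside 610 of 1246 and 0.00 over all probe sets. The list mean overlapped between the lines, at 6.06 to 7.61 in Tm1N3 and 6.80 to 7.19 in Tm1G3 tumours of knockout hosts. In WT hosts it also did, at 6.51 to 7.39 and 6.57 to 7.59. Adgre1 and Cx3cr1, surface receptors of macrophages and monocytes, stood at -0.54 ± 0.44 and -0.53 ± 0.24 (SE).

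Of 16 fibroblast and matrix genes 7 were measured. Fbln5, an elastic fibre protein, was higher in Tm1N3 tumours by 0.76 ± 0.11 (SE; limma, adjusted p = 0.00379), and Dcn, the matrix proteoglycan decorin, differed by -0.51 ± 0.47. Dendritic cell (8 of 11), T and NK cell (6 of 19), B cell (2 of 8) and neutrophil genes (4 of 12) gave no call. No member of any list passed in a host comparison. Correlations of the list means with Kit over 12 arrays ran from -0.36 for the other receptor tyrosine kinases to 0.33 for endothelial genes.

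The macrophage and fibroblast levels varied between replicates of a group, on some arrays along with Kit and on others not. Replicate 3 of Tm1N3 had the highest macrophage mean of its group in knockout hosts (7.61, against 6.06 and 6.30 for replicates 1 and 2) and in WT hosts (7.39, against 6.56 and 6.51). Kit on those arrays was 5.41, the middle value of its group, and 5.62, the lowest of its group. Replicate 1 of Tm1N3 in knockout hosts was lowest for Kit, at 4.91. It was also the lowest of all 12 arrays for the macrophage (6.06), fibroblast (6.46), endothelial (6.97) and mast cell (5.66) means. The blood progenitor (8.36), class III receptor and ligand (6.07) and mast cell cytokine (5.25) means were lowest on that array too. Replicate 1 of Tm1G3 in knockout hosts was highest for Kit, at 7.22. It was also the highest of its group for the macrophage (7.19) and fibroblast (7.39) means. The same array was the highest of all 12 for the endothelial (7.59) and melanocyte (7.71) means. The melanocyte mean ranked the replicates as Kit did in every group except Tm1G3 in WT hosts. Over all 12 arrays, however, its Pearson correlation with Kit was -0.01. The part of these levels in the Kit differences was not tested.

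**Figure D4:**
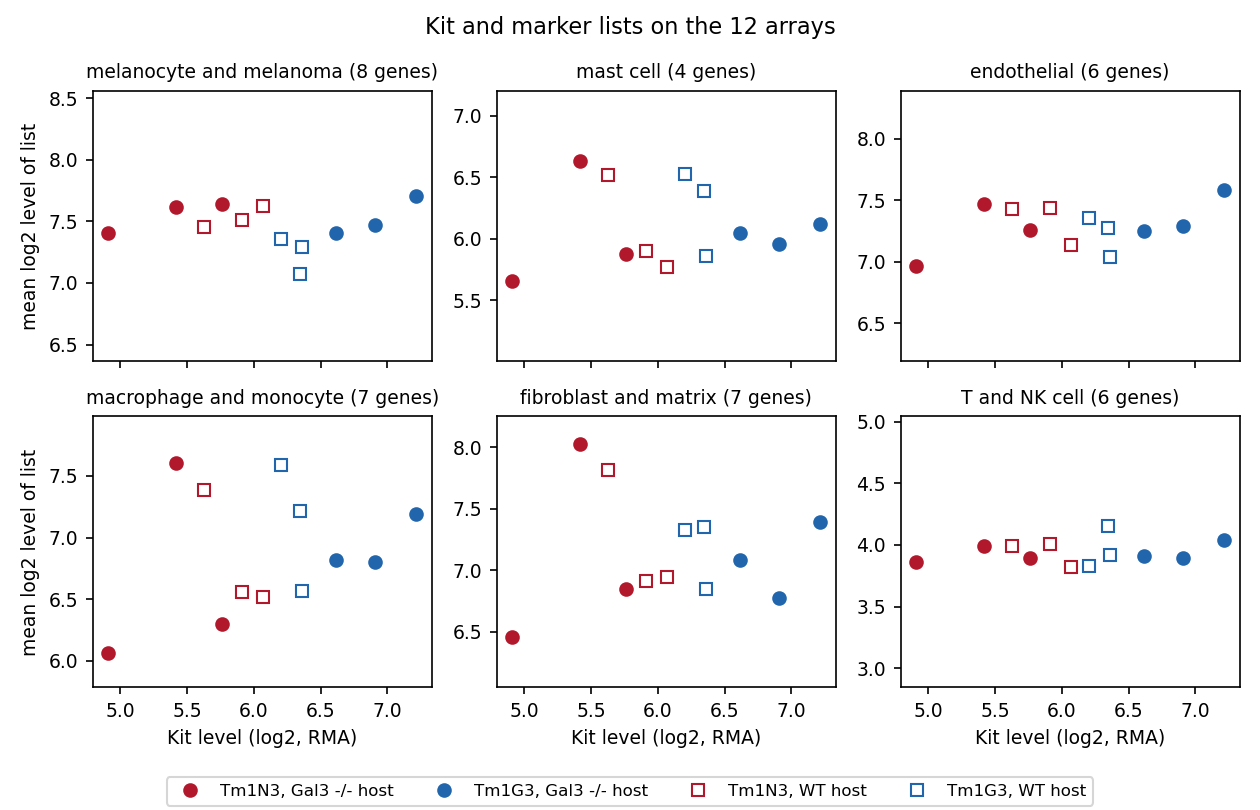
Mean log2 level of 6 marker lists (vertical axes, each spanning the same log2 distance) against the Kit level (log2, horizontal axes) on the 12 arrays; red is Tm1N3, blue is Tm1G3, filled circles are knockout hosts and open squares WT hosts. The array lowest for Kit, at 4.91, is also lowest in the macrophage, fibroblast, endothelial and mast cell panels. The mast cell means lie between 5.66, on that array, and 6.63.

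The named probe sets most like Kit were ranked by Pearson correlation over the 12 arrays, a description without a p, since all points share lines, hosts and tumours. Of 962 compared, 16 had r over 0.8 and 2 had r under -0.8, and the median was 0.02. The 6 highest were Gpc6 (0.903), Slc35f1 (0.900), Il17rd (0.875), Havcr2 (0.874), Icam2 (0.871) and Il12rb1 (0.869). Because Kit differs between the lines, a high r favours genes that do so too. The probe sets of Gpc6, Slc35f1 and Icam2 carry a suffix for probes shared between transcripts, so related transcripts may add to them.

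Gpc6, a glypican that carries heparan sulfate at the cell surface, read 6.46, 6.87 and 6.82 in Tm1N3 against 7.31, 7.24 and 7.11 in Tm1G3 tumours of knockout hosts. In WT hosts it read 6.79, 7.10 and 6.82 in Tm1N3 against 7.12, 7.34 and 7.17 in Tm1G3 tumours. As for Kit, the lowest array was replicate 1 of Tm1N3 in knockout hosts, and replicate 2 was the highest of the Tm1N3 arrays of each host. Its host difference was -0.19 ± 0.12 (SE) in Tm1N3 and 0.01 ± 0.12 in Tm1G3 tumours, so the higher level of Kit in Tm1G3 tumours of knockout hosts had no match in Gpc6 of that size. With the group means taken out, Gpc6 still had r = 0.847 with Kit. Within the 6 Tm1N3 arrays r was 0.895 and within the 6 Tm1G3 arrays it was 0.443.

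Slc35f1, of the nucleotide sugar transporter family by sequence, had line differences of -1.98 ± 0.31 in knockout and -1.33 ± 0.31 in WT hosts (SE). It read 5.11, 5.78 and 5.66 in Tm1N3 against 7.69, 7.69 and 7.11 in Tm1G3 tumours of knockout hosts. In WT hosts it read 5.41, 5.98 and 5.56 in Tm1N3 against 6.61, 7.71 and 6.61 in Tm1G3 tumours, where replicate 2 stood apart. Its host difference in Tm1G3 tumours, 0.52 ± 0.31 (SE), had the sign of the Kit difference.

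Il17rd, a membrane protein that dampens FGF signalling, had line differences of -0.92 ± 0.13 in knockout and -0.71 ± 0.13 in WT hosts (SE). Havcr2, the inhibitory T cell and myeloid receptor TIM-3, stood at -0.51 ± 0.07 and -0.30 ± 0.07, and Il12rb1, a shared chain of the interleukin-12 and interleukin-23 receptors, at -0.73 ± 0.18 and -0.54 ± 0.18. All 6 had a lower level in Tm1N3 in both hosts and a larger difference in knockout hosts, and in none did the line difference of knockout hosts exceed that of WT hosts as much as in Kit, where it was -1.55 against -0.44. The 6 genes were picked by their r with Kit, which has this pattern itself, so the choice favours the shared directions. Kit was also second in size of 1246 probe sets in the line by host term, which left little room to exceed it. The contrast between Kit and these genes is a description and had no test. By Spearman rho 4 of the 6 were again among the 6 highest, and with group means taken out 1 of the 6, Gpc6, was. With 1 array left out, as few as 3 of the 6 stayed among the 6 highest.

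At the other end were Eif5, a translation initiation factor (r = -0.832), Ppm1a, a protein phosphatase (-0.813), Fgf18, a growth factor (-0.775), and Il5ra, the interleukin-5 receptor chain (-0.761). Eif5 read 11.42, 11.32 and 11.19 in Tm1N3 against 11.01, 11.02 and 11.10 in Tm1G3 tumours of knockout hosts, a narrow span beside that of Kit. Fgf18 moved by 0.09 ± 0.04 (SE) on average, and Il5ra lay among the dimmest 25% of probe sets.

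**Figure D5:**
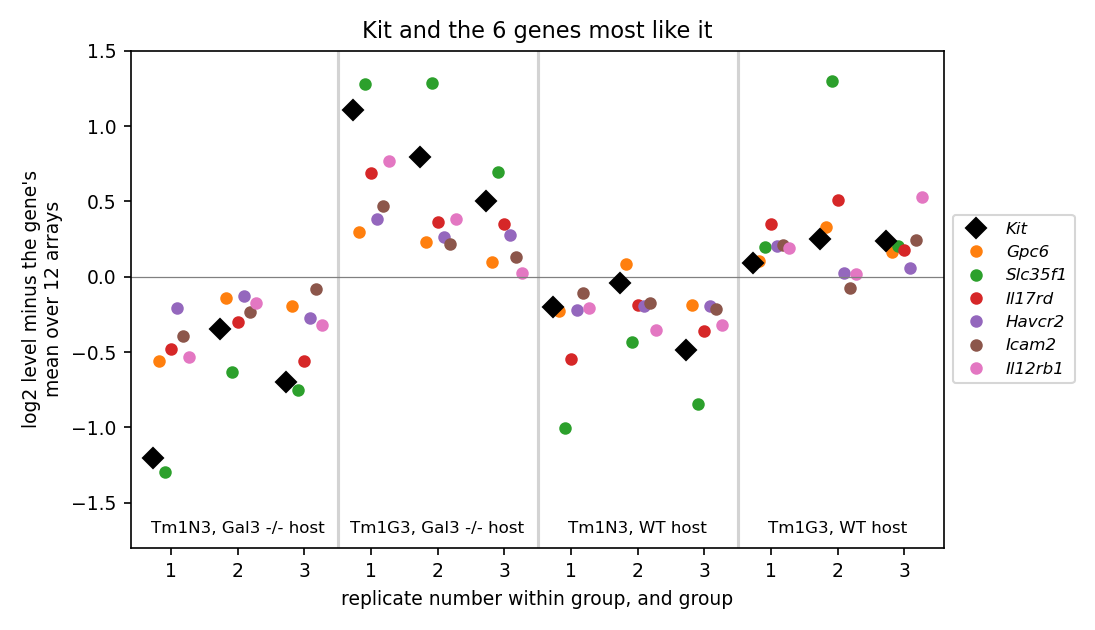
Log2 level minus the mean of the same gene over 12 arrays, for Kit (black diamonds) and the 6 genes with the highest r with Kit, by group and replicate number; points of 1 array are spread sideways so that they can be seen. All 7 genes lie mostly below 0 in Tm1N3 and above 0 in Tm1G3 tumours, and in Tm1G3 tumours of knockout hosts Slc35f1 and Kit lie highest.

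The arrays as a whole were alike: their medians lay between 5.51 and 5.60, all pairs correlated at 0.976 or more, and no pair was identical. Lgals3, the galectin-3 gene, did not separate the groups as labelled. In Tm1G3 tumours of knockout hosts, where by the labels it is silenced or knocked out in all cells, it read 9.15, 9.80 and 8.98. Those values are far above the array medians. It averaged 9.86 ± 0.62 in Tm1N3 and 9.31 ± 0.43 in Tm1G3 tumours of knockout hosts, and 9.97 ± 0.37 and 9.61 ± 0.34 in WT hosts (SD, n = 3 each; 2-sided exact permutation p = 0.3 in both, where 0.1 is the smallest possible). Without replicate 3 of Tm1N3, the line difference of Lgals3 was 0.21 in knockout hosts, against 0.55 with it, and 0.15 in WT hosts, against 0.36 with it. Between knockout and WT hosts it differed by -0.11 in Tm1N3 (exact permutation p = 0.8) and by -0.30 in Tm1G3 tumours (exact permutation p = 0.4). Its probe set has shared probes, and the sources used here do not say whether they lie in the deleted or silenced stretch. The lines are therefore those named by the labels, and their galectin-3 state was not settled by this array. The labels do not say that each replicate is a separate mouse, so p-values here cover the spread between samples alone, which may be technical.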

How the data were processed

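Total RNA of 12 tumours was extracted with Trizol and labelled as biotinylated cRNA for Affymetrix arrays, per the labels' protocols. The authors deposited log2 expression values made with RMA, per the submitters' processing notes; its version and the build are not given in the sources used here. The values were used as deposited, from 2.14 to 13.9. Detection calls were not used, and the number of arrays limits the precision.

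Probe sets were named by the RefSeq accession in their name through a RefSeq gene table of assembly GRCm38.p6. Of 1246, 963 had 1 symbol and 283 stayed unnamed. Where a gene had several probe sets, the brightest stood for it in the lists. The 4 group means were fitted over all 12 arrays with limma 3.58.1 in R 4.3.3 (lmFit and eBayes, 8 residual and 2.39 prior degrees of freedom), with 7 comparisons, and p-values were adjusted by Benjamini-Hochberg over 1246 probe sets at 0.05. Standard errors are those of this fit. The 25% of probe sets with the lowest mean over all arrays, up to 4.22, are called the dimmest. Correlations used Python 3.11.15 with pandas 2.3.3. The fit was tested on simulated data.

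Kit and the lists were chosen with earlier results of these data known. Named genes are Kit, all measured class III receptors and ligands, the members of the other lists that passed in any comparison (or, where fewer than 2 did, the 2 with the largest averaged line difference), the 6 most and 4 least correlated with Kit, and Lgals3. The genes of the largest line by host terms were named after their values were seen.

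Replicate numbers recur in all groups. As a check of pairing, arrays with the same number were compared by how they departed from their group means, which correlated at 0.184 to 0.752 between hosts in Tm1N3 and at 0.249 to 0.308 in Tm1G3 tumours, all over 0.1, so the numbers were taken to pair hosts within a line. The basis is these correlations alone. Arrays of unlike numbers were not compared and the labels state no pairing, so it remains an assumption. The main fit has no term for the replicate number, and fits with such a block are among the alternatives. Between lines they ran from -0.660 to 0.273 in knockout and from 0.008 to 0.544 in WT hosts, which was not taken as pairing. The numbers that open the labels run from 2 to 23 for knockout and from 31 to 52 for WT hosts, and if they mark an order of work, host and order cannot be told apart. Alternatives were another scaling, filter, prior, block, choice of arrays and probe set, and each array left out in turn.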

Additional observations from a re-analysis of the deposited data

How the results depend on the processing

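Of 130 values of the Kit differences under the alternatives, 56 equal the reported value, since those settings change only its error or leave out an array that is not compared. The other 74 differ from it by less than the pooled within-group SD of 0.289. That is a wide yardstick, since leaving out 1 of 3 arrays can hardly move a group mean so far. It covers even the host difference of -0.28 in Tm1N3 tumours, which was -0.51 with all arrays. With 1 array left out, the line difference of Kit ran from -1.75 to -1.33 in knockout hosts, from -0.54 to -0.31 in WT hosts and from -1.09 to -0.88 averaged. The host difference ran from -0.71 to -0.28 in Tm1N3, from 0.46 to 0.76 in Tm1G3 tumours and from -0.05 to 0.16 averaged, where the sign is not settled, and the line by host term from -1.32 to -0.89. The SE of 0.21 is shared by all groups. With only the compared groups fitted, the SE of the line difference was 0.25 in knockout and 0.12 in WT hosts. That of the host difference was 0.23 in Tm1N3 and 0.15 in Tm1G3 tumours. Host and line by host comparisons had 0 calls under every alternative run.

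Counts of probe sets moved more. In knockout hosts the count of 9 became 4 with only the compared groups fitted and ran from 5 to 13 with 1 array left out. In WT hosts the count of 11 became 6 with arrays centred on their median (4 higher, 2 lower) and 3 with only the compared groups, and ran from 2 to 21. The averaged count of 53 ran from 32, without replicate 2 of Tm1G3 in knockout hosts, to 63. Quantile normalization again gave 29 higher and 28 lower averaged, against 16 and 37, and 10 higher and 5 lower in WT hosts. Of the list members, the 2 called in knockout hosts became 1 with only the compared groups and 1 with the random replicate block, and ran from 1 to 3. The 3 called in WT hosts became 1 with only the compared groups and ran from 1 to 4.

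With the replicate block as a fixed term, 13, 13 and 50 probe sets passed in knockout hosts, in WT hosts and averaged. With the block as a random term (correlation 0.273) it was 6, 15 and 40. Il3ra in knockout hosts and, averaged, Icam2 and Il12rb1 were lost with the random block, and Mcam with both. With 1 array left out Il3ra passed in 5 of 12 fits in knockout and 7 of 12 in WT hosts, Icam2 in 9 and Mcam in 3 averaged, while Il18, Fbln5 and Mcoln3 averaged passed in 12. The host difference of Lgals3 in Tm1N3 tumours changed sign, to 0.15 without replicate 1 in knockout hosts and 0.10 without replicate 3 in WT hosts, within a range of -0.45 to 0.15. With 1 array left out, its line difference ran from 0.21 to 0.81 in knockout and from 0.15 to 0.54 in WT hosts, and its host difference in Tm1G3 tumours from -0.55 to -0.12. The cause of these changes was not tested. Fits of the compared groups alone also hold fewer arrays.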

Other observations

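With the 4 group means taken out, the genes that followed Kit from tumour to tumour were mostly others than those most like it overall. Dll1, which encodes a Notch ligand, had r = 0.966 with Kit in these deviations and 0.03 over the arrays as they stand. Dpagt1, the enzyme of the first step of the N-glycan precursor, had 0.911 and 0.54, and Igfbp4, a binding protein of insulin-like growth factors, had 0.886 and 0.08. Slc35a2, the Golgi transporter of UDP-galactose, and Fzd6, a Wnt receptor, had 0.861 and 0.857, with r of -0.23 and -0.16 as they stand. These values rest on 12 arrays less 4 group means and were ranked over 962 probe sets, and they are given as a description.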
